A study of Nomascus leucogenys with 9 samples.

Results

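The genes described here carry out chromosome segregation and cell division. They were fixed as 43 human-format Ensembl identifiers, of which 41 were rows of the expression table of 15356 rows. The identifiers for BUB1, a checkpoint kinase (ENSG00000169679), and SPC25, a subunit of the outer kinetochore (ENSG00000152253), were not among the rows used and have no values here. All 41 rows lay above the filter on low values, with mean levels from 21.2 to 582.1 ppm of the summed linear signal of the table, so that no member was lost to it. The log base of the table is not stated and was taken as 2, and every fold and every ppm level given here rests on that. The levels are not known to be per transcript length and are compared only within a gene, between lines.

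Expression had been measured by RNA-seq in B lymphocytes that Epstein-Barr virus keeps dividing in culture (lymphoblastoid lines). The lines derive from 9 individual gibbons of the northern white-cheeked species (Nomascus leucogenys), and none carried a labelled treatment, genotype or age, so the 9 libraries form 1 group without a contrast. They bear the names of the animals: Vok, Asia, Phyllis, Melouprey, Khao, Nancy, Ricky, China and Bobby. Animal, culture and transformation event coincide in each line and cannot be told apart.

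Mitosis begins when cyclin B activates CDK1, and the chromosomes are then compacted by condensin and attached to the spindle through the kinetochore. The spindle checkpoint holds back the anaphase-promoting complex (APC/C) until every kinetochore is attached, after which separase cuts the cohesin that joins sister chromatids and the midzone directs cytokinesis. Transcripts of most of these genes accumulate in G2 and mitosis, so their level in a growing culture is commonly read as a sign of proliferation. In bulk RNA, fewer dividing cells and less of the RNA per dividing cell cannot be told apart.

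B cell markers were checked by their human identifiers, whose symbols were taken from general knowledge because the table gives none. MS4A1 (CD20), a B cell surface protein, lay between 47.4 and 459.8 ppm, CD79A between 150.2 and 215.02 ppm and CD79B between 50.3 and 102.7 ppm, the last of these forming with CD79A the signalling part of the B cell receptor. The T cell genes CD3D and CD3E together reached 2.11 to 7.14 ppm, the cytotoxic cell gene NKG7 reached 7.80 to 17.6 ppm, and CD14 and LYZ of myeloid cells were not among the rows used. The sum of these 3 B cell markers was highest in Vok, at 708.5 ppm, and lowest in Phyllis, at 282.6 ppm. Of the 3, only MS4A1 had these end lines, at 12.62 log2 units in Vok and 9.36 in Phyllis. CD79A read 11.18 in Vok and 11.27 in Phyllis, and CD79B read 10.09 and 9.64. The part of these markers in the results below was not tested.

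The mitotic genes varied together from line to line, over ranges of less than 3-fold. A deviation is the log2 value of a gene in a line minus the median of that gene over the 9 lines. The median deviation of the 41 genes was 0.45 in Vok, 0.27 in Melouprey, 0.23 in Phyllis, 0.17 in China, 0.00 in Ricky, -0.02 in Bobby, -0.16 in Nancy, -0.21 in Khao and -0.37 in Asia. Vok and Asia therefore stood at the ends, 0.81 log2 units or 1.76-fold apart. Over all 12590 rows kept by the filter, the median deviation was within 0.025 of 0 in every line. In Melouprey and in Phyllis 40 of the 41 genes lay above their median and none below it, and in Vok 40 lay above and 1 below. In Asia, in Khao and in Nancy 39 lay below and 1 above.

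**Figure D1:**
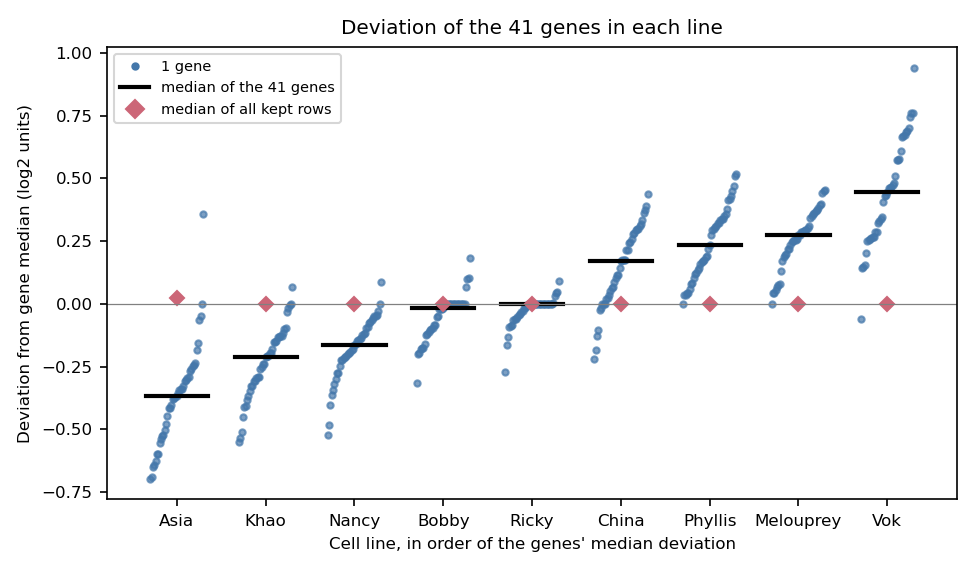
Deviation of each of the 41 mitotic genes from its median over the 9 lines (vertical axis, log2 units), with lines ordered along the horizontal axis by the median of the genes. Points are genes, black bars the median of the 41 genes and diamonds the median of all 12590 kept rows; the bars run from -0.37 in Asia to 0.45 in Vok while the diamonds stay within 0.025 of 0.

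Vok was the highest line for 29 of the 41 genes, against 21.7% of all kept rows. The others peaked in Phyllis (5 genes), Melouprey (4 genes), Asia (BUB3), Bobby (MAD2L1) and China (CENPA). Asia was the lowest line for 30 genes, against 14.0% of all kept rows, followed by Khao (7 genes), Nancy (3 genes) and Ricky (PRC1). Asia also had the widest spread over the whole table. The SD of the deviations over all kept rows was 0.53 log2 units in Asia, 0.42 in Nancy, 0.40 in Vok and 0.39 in China, against 0.22 to 0.32 in the other lines.

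The highest and the lowest line lay at least 2-fold apart in 14 of 41 genes (34.1%), against 26.4% of all kept rows, a share not far from the background. None of the 41 spanned 4-fold, against 6.18% of all kept rows. Fold ranges ran from 1.37 for PRC1 to 2.70 for KNL1, with a median of 1.90, against 1.60 over all kept rows. Without Vok 4 genes spanned 2-fold, without Asia 5, and without both 1. The share of all kept rows was not computed for these subsets of lines, so the fall cannot be read as particular to the 41 genes.

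**Figure D2:**
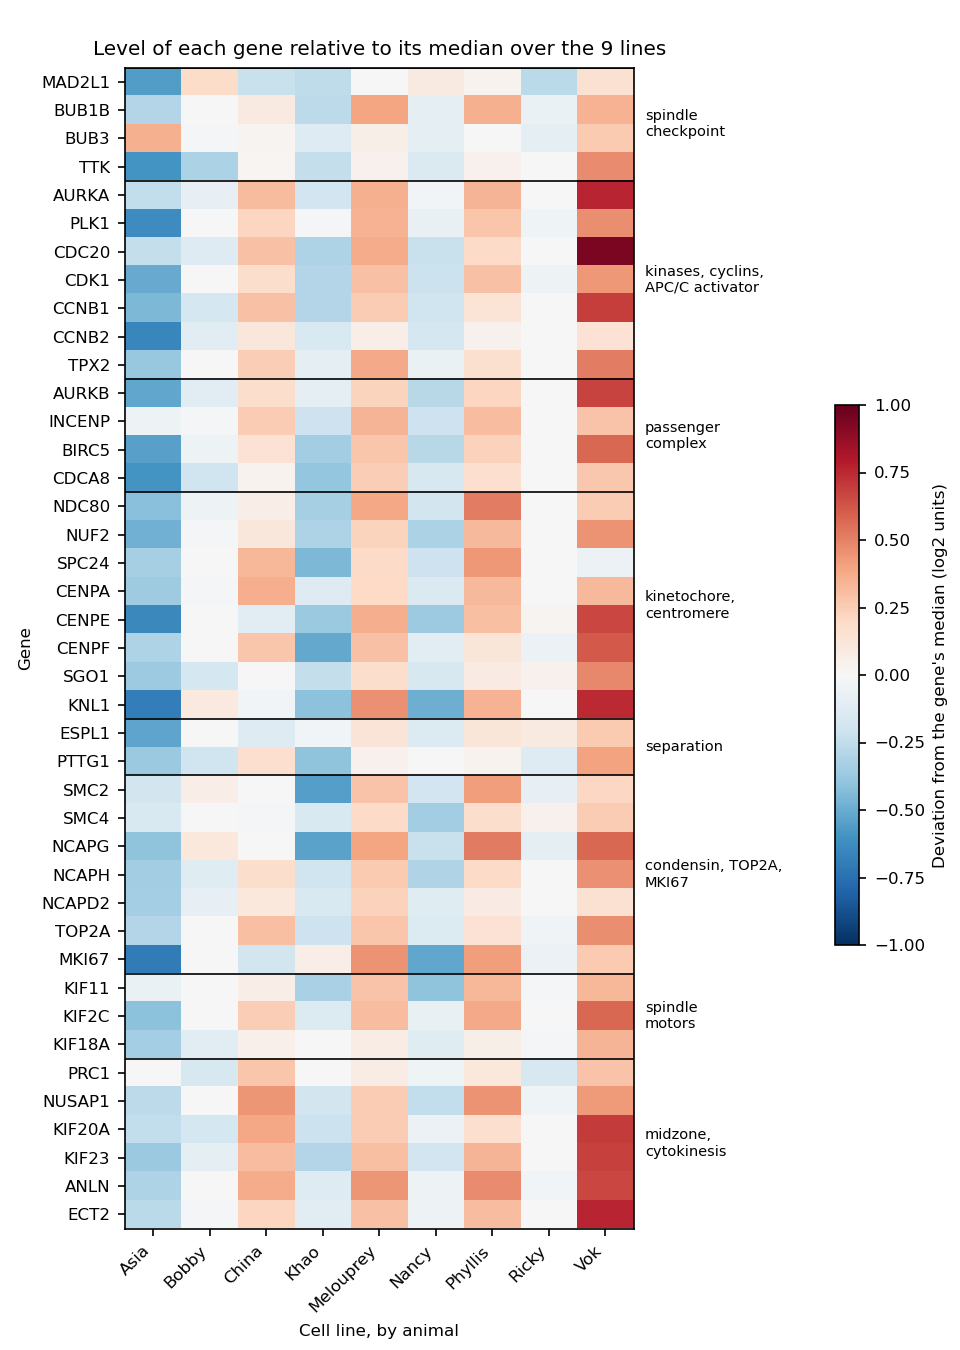
Heat map of the deviation of each gene (rows, grouped by role) from its median in each line (columns), in log2 units, with red above and blue below the median. The Vok, Melouprey and Phyllis columns are red and the Asia, Khao and Nancy columns blue for nearly every gene, with BUB3 the exception in Asia, at 0.36.

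Spindle checkpoint genes were the least uniform group. BUB1B (ENSG00000156970), the BubR1 protein that blocks CDC20, ran from 10.03 log2 units in Asia to 10.72 in Melouprey, with Phyllis at 10.69 and Vok at 10.67 close behind (mean 10.38 ± 0.26, SD, n = 9). TTK (ENSG00000112742), the Mps1 kinase that starts the checkpoint signal, ran from 9.38 in Asia to 10.45 in Vok, with a median of 9.98 (mean 9.90 ± 0.30). MAD2L1 (ENSG00000164109), the Mad2 protein that binds CDC20, was lowest in Asia at 10.64 but highest in Bobby at 11.38, with Vok next at 11.35 (mean 11.10 ± 0.24). BUB3 (ENSG00000154473), the adaptor that carries BUB1 and BubR1 to the kinetochore, departed most. Its values were 11.50 in Asia, 11.41 in Vok, 11.20 in Melouprey, 11.17 in China, 11.14 in Phyllis, 11.12 in Bobby, 11.06 in Ricky, 11.05 in Nancy and 11.02 in Khao (mean 11.18 ± 0.17, a 1.40-fold range). BUB3 was the single gene with its highest level in Asia, the line where most of the others were lowest.

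All 7 genes of mitotic entry and APC/C activation peaked in Vok, and 6 of them were lowest in Asia. CDC20 (ENSG00000117399), which activates the APC/C, stood at 10.83 log2 units in Vok, 10.26 in Melouprey, 10.19 in China, 10.08 in Phyllis, 9.89 in Ricky, 9.77 in Bobby, 9.67 in Nancy, 9.66 in Asia and 9.58 in Khao (mean 9.99 ± 0.40, SD, n = 9). Vok exceeded the next line by 0.57 log2 units for CDC20, the widest such gap among the 41 genes, over a 2.38-fold range. CCNB1 (ENSG00000134057), cyclin B1, read 11.31 in Vok, 10.92 in China, 10.88 in Melouprey, 10.76 in Phyllis, 10.62 in Ricky, 10.45 in Bobby, 10.42 in Nancy, 10.33 in Khao and 10.18 in Asia (mean 10.65 ± 0.35, 2.20-fold). Its kinase partner CDK1 (ENSG00000170312) ran from 10.04 in Asia through a median of 10.54 to 10.98 in Vok (mean 10.56 ± 0.31). Cyclin B1 and CDK1 thus had the same end lines.

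CCNB2 (ENSG00000157456), cyclin B2, read 10.29 in Vok, 10.26 in China, 10.21 in Melouprey, 10.19 in Phyllis, 10.14 in Ricky, 10.04 in Bobby, 9.99 in Khao, 9.96 in Nancy and 9.49 in Asia (mean 10.06 ± 0.24). PLK1 (ENSG00000166851), the polo-like kinase of mitotic entry and exit, read 10.48 in Vok, 10.37 in Melouprey, 10.29 in Phyllis, 10.23 in China, 10.02 in Bobby, 9.998 in Khao, 9.98 in Ricky, 9.95 in Nancy and 9.39 in Asia (mean 10.08 ± 0.32). In both genes Asia lay well below a compact set of 8 lines. AURKA (ENSG00000087586), the Aurora A kinase of centrosomes and spindle poles, ran from 9.60 in Asia through 9.85 to 10.61 in Vok (mean 9.98 ± 0.33), and its activator TPX2 (ENSG00000088325) from 11.07 in Asia through 11.45 to 11.96 in Vok (mean 11.54 ± 0.27).

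The chromosomal passenger complex corrects faulty attachments and later acts at the midzone. Its kinase AURKB (ENSG00000178999), Aurora B, read 9.73 log2 units in Vok, 9.28 in Melouprey, 9.27 in Phyllis, 9.23 in China, 9.06 in Ricky, 8.96 in Khao, 8.95 in Bobby, 8.78 in Nancy and 8.53 in Asia (mean 9.09 ± 0.34, SD, n = 9, 2.29-fold). BIRC5 (ENSG00000089685), survivin, read 10.82 in Vok, 10.52 in Melouprey, 10.48 in Phyllis, 10.39 in China, 10.25 in Ricky, 10.20 in Bobby, 9.97 in Nancy, 9.90 in Khao and 9.71 in Asia (mean 10.25 ± 0.35, 2.16-fold). CDCA8 (ENSG00000134690), borealin, ran from 8.75 in Asia through 9.35 to 9.62 in Vok (mean 9.28 ± 0.29). These 3 subunits shared their highest and their lowest line. The scaffold INCENP (ENSG00000149503) had a narrower, 1.47-fold range, with 11.03 in Melouprey, 10.99 in Phyllis, 10.97 in Vok, 10.95 in China, 10.69 in Ricky, 10.67 in Bobby, 10.64 in Asia and 10.48 in both Khao and Nancy (mean 10.77 ± 0.22). In INCENP, Melouprey, Phyllis, Vok and China lay above a gap that left the other lines at 10.69 or lower.

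Among kinetochore and centromere genes were the widest ranges of all. KNL1 (ENSG00000137812), the scaffold to which checkpoint proteins dock, read 12.26 log2 units in Vok, 11.97 in Melouprey, 11.87 in Phyllis, 11.61 in Bobby, 11.52 in Ricky, 11.49 in China, 11.10 in Khao, 11.03 in Nancy and 10.82 in Asia (mean 11.52 ± 0.47, SD, n = 9, 2.70-fold). CENPE (ENSG00000138778), a kinesin of the kinetochore, read 12.18 in Vok, 11.87 in Melouprey, 11.81 in Phyllis, 11.54 in Ricky, 11.51 in Bobby, 11.41 in China, 11.15 in Nancy, 11.14 in Khao and 10.87 in Asia (mean 11.50 ± 0.41, 2.48-fold). CENPF (ENSG00000117724), a large protein of the outer kinetochore, read 12.94 in Vok, 12.62 in Melouprey, 12.60 in China, 12.45 in Phyllis, 12.33 in Bobby, 12.26 in Ricky, 12.21 in Nancy, 12.02 in Asia and 11.81 in Khao (mean 12.36 ± 0.34, 2.18-fold). KNL1 and CENPE had their top 3 lines in the same order and CENPF placed China above Phyllis.

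The microtubule-binding NDC80 complex is made of paired subunits. NDC80 (ENSG00000080986) ran from 8.98 in Asia through 9.39 to 9.90 in Phyllis (mean 9.42 ± 0.31), and its partner NUF2 (ENSG00000143228) from 8.93 in Asia through 9.40 to 9.85 in Vok (mean 9.40 ± 0.31). SPC24 (ENSG00000161888) ran from 8.89 in Khao through 9.34 to 9.77 in Phyllis (mean 9.33 ± 0.29). SPC24 was the single one of the 41 genes that lay below its median in Vok, at 9.28. CENPA (ENSG00000115163), the histone H3 variant that marks centromeres, ran from 9.35 in Asia through 9.71 to 10.07 in China (mean 9.77 ± 0.25). SGO1 (ENSG00000129810), shugoshin, which protects centromeric cohesin, read 8.69 in Vok, 8.38 in Melouprey, 8.29 in Phyllis, 8.25 in Ricky, 8.21 in China, 8.04 in Nancy, 8.03 in Bobby, 7.97 in Khao and 7.84 in Asia (mean 8.19 ± 0.25, 1.80-fold).

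The genes of sister separation varied less. ESPL1 (ENSG00000135476), separase, ran from 10.01 in Asia through 10.53 to 10.80 in Vok (mean 10.51 ± 0.23, SD, n = 9). PTTG1 (ENSG00000164611), securin, the inhibitor that separase is held by, ran from 9.55 in Khao through 9.95 to 10.36 in Vok (mean 9.90 ± 0.26). Both peaked in Vok but their order differed below it, with Khao at 10.50 for ESPL1, near the middle of its lines.

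Condensin folds chromosomes into compact rods. Its ATPase subunit SMC4 (ENSG00000113810) had a narrow range, with 13.23 log2 units in Vok, 13.16 in Melouprey, 13.15 in Phyllis, 13.02 in Ricky, 12.97 in Bobby, 12.96 in China, 12.82 in both Khao and Asia and 12.63 in Nancy (mean 12.97 ± 0.19, SD, n = 9, 1.52-fold). The other ATPase, SMC2 (ENSG00000136824), ran from 11.45 in Khao through 12.00 to 12.41 in Phyllis (mean 11.99 ± 0.29). SMC2 therefore had neither its highest nor its lowest level in Vok or Asia. Of the condensin I subunits, NCAPG (ENSG00000109805) ran from 10.75 in Khao through 11.28 to 11.85 in Vok (mean 11.32 ± 0.40, 2.15-fold). The kleisin NCAPH (ENSG00000121152) ran from 10.41 in Asia through 10.75 to 11.21 in Vok (mean 10.76 ± 0.28), and NCAPD2 (ENSG00000010292) from 11.32 in Asia through 11.66 to 11.89 in Melouprey (mean 11.64 ± 0.18). TOP2A (ENSG00000131747), the topoisomerase that untangles sister DNA, ran from 12.40 in Asia through 12.70 to 13.16 in Vok (mean 12.75 ± 0.25).

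MKI67 (ENSG00000148773) encodes Ki-67, which coats mitotic chromosomes and is the usual antibody marker of proliferation. It read 11.24 in Melouprey, 11.21 in Phyllis, 11.05 in Vok, 10.86 in Khao, 10.79 in Bobby, 10.73 in Ricky, 10.61 in China, 10.27 in Nancy and 10.10 in Asia (mean 10.76 ± 0.39, 2.21-fold). Khao, one of the low lines for most of the genes, was thus above the median for MKI67, and China below it.

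The spindle motors KIF11 (ENSG00000138160, which pushes spindle poles apart), KIF2C (ENSG00000142945, which depolymerises microtubules at centromeres) and KIF18A (ENSG00000121621, which dampens chromosome movement) spanned 1.67-fold, 1.99-fold and 1.60-fold. KIF11 ran from 11.14 in Nancy to 11.88 in Phyllis (mean 11.57 ± 0.27, SD, n = 9), KIF2C from 9.97 in Asia to 10.96 in Vok (mean 10.48 ± 0.30) and KIF18A from 9.39 in Asia to 10.06 in Vok (mean 9.72 ± 0.18).

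Of the 6 midzone and cytokinesis genes, 5 had their highest level in Vok and 5 their lowest in Asia. KIF23 (ENSG00000137807), the motor of centralspindlin, ran from 9.88 in Asia through 10.25 to 10.94 in Vok (mean 10.33 ± 0.35, SD, n = 9). ECT2 (ENSG00000114346), which activates RhoA at the division plane, ran from 9.59 in Asia through 9.86 to 10.62 in Vok (mean 9.99 ± 0.31). ANLN (ENSG00000011426), anillin of the contractile ring, ran from 9.26 in Asia through 9.57 to 10.24 in Vok (mean 9.73 ± 0.33). KIF20A (ENSG00000112984), a kinesin that carries the passenger complex to the midzone, ran from 10.32 in Asia to 11.27 in Vok (mean 10.66 ± 0.32), and NUSAP1 (ENSG00000137804), a microtubule bundler, from 10.52 in Asia to 11.23 in Phyllis (mean 10.88 ± 0.30). PRC1 (ENSG00000198901), which crosslinks midzone microtubules, had the narrowest range of the 41 genes, at 1.37-fold. It read 11.28 in both Vok and China, 11.10 in Phyllis, 11.07 in Melouprey, 10.997 in Asia, 10.99 in Khao, 10.95 in Nancy, 10.84 in Bobby and 10.83 in Ricky (mean 11.04 ± 0.16). Asia lay at the median for PRC1.

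Pearson correlations between the genes over the 9 lines were mostly high. The mean over the 820 pairs was 0.78 and the median 0.85, and 62.0% of pairs reached at least 0.8, against 1.82% of all pairs of kept rows. The mean over all pairs of kept rows was 0.0082. These correlations are descriptive: all pairs share the same 9 libraries and one scaling by the authors. The closest pair was CENPE and KNL1, at 0.99. Set against the mean deviation of the other 40 genes, 28 genes correlated at 0.9 or more, among them BIRC5 (0.99), CDK1 (0.99), KIF2C (0.99), KIF23 (0.99) and NUF2 (0.98). The lowest values were those of BUB3 (0.11), MAD2L1 (0.58), PRC1 (0.64), SPC24 (0.69), MKI67 (0.76), SMC2 (0.79) and ESPL1 (0.80). The share of all kept rows reaching 0.9 against the mean of these genes was not computed, so the count of 28 has no background. Only 12 of the 820 pairs were below 0, and all of them involved BUB3.

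**Figure D3:**
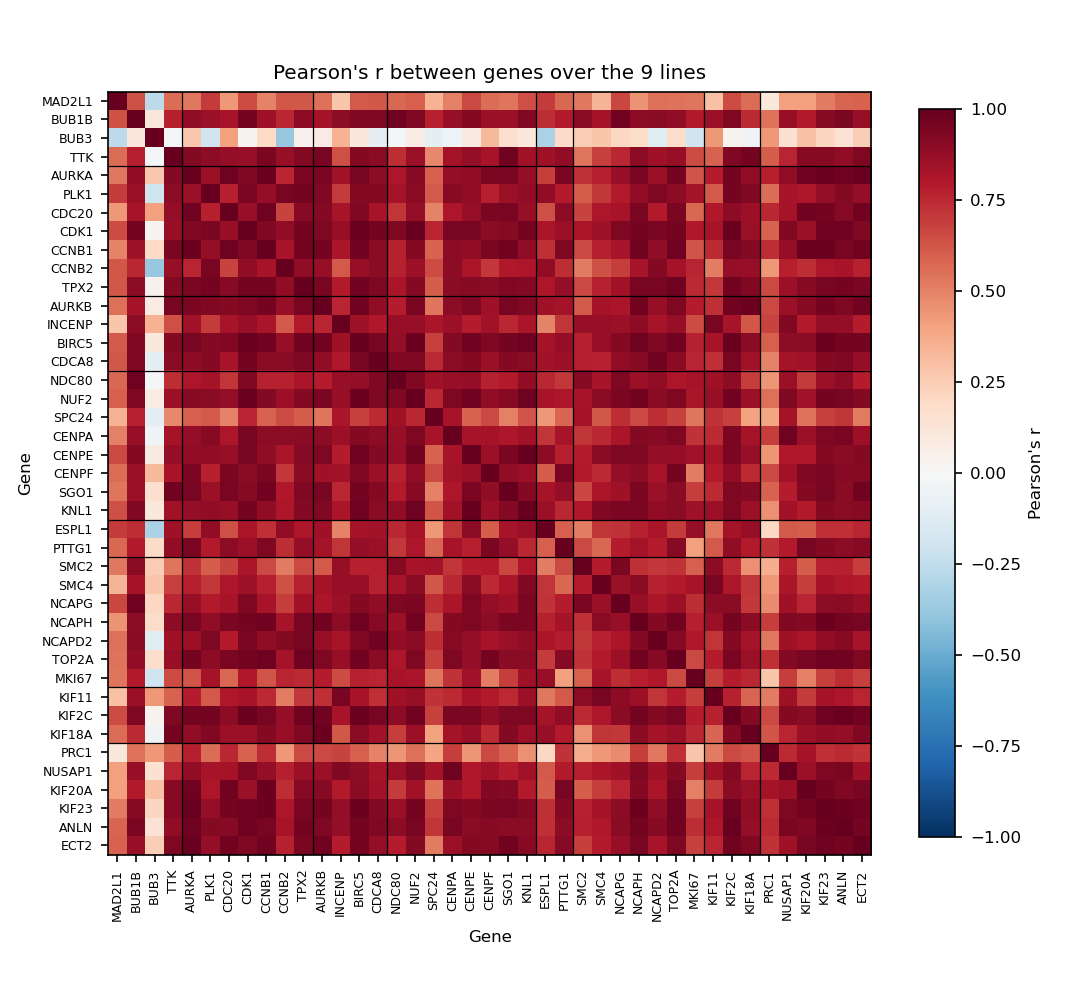
Pearson's r over the 9 lines for each pair of the 41 genes, grouped by role with black lines between roles. Most cells are dark red (median 0.85), while the BUB3 row is pale or blue, down to -0.38 with CCNB2, and the MAD2L1, PRC1 and SPC24 rows are paler than the rest.

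Pairs of genes whose proteins work together were then compared, to see whether such partners vary together among lines. Of 12 pairs fixed from textbook knowledge 11 could be compared, since SPC25 has no row. The first gene of each pair was set against every other kept row by an exact permutation test of Pearson's r, two-sided on the size of r, with Benjamini-Hochberg adjustment over all those rows. At an adjusted p under 0.05 this called 4 of the 11 pairs, and 8 of 11 had an unadjusted p under 0.05. The share of all rows under the unadjusted threshold was not computed, so the count of 8 has no background here. The r of the 11 pairs had a mean of 0.75 and a median of 0.87, beside 0.78 and 0.85 over all 820 pairs of the 41 genes. Calls against all rows therefore do not show partners to be closer than other pairs of these genes, and that difference was not tested.

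KIF23 and ECT2, which meet at the midzone, had r = 0.97 over 9 lines (exact permutation p = 8.3e-06, adjusted 0.020; rho = 0.98, p = 5.0e-05), where 2.04% of all rows passed the same threshold with KIF23. BIRC5 and CDCA8 had r = 0.95 (exact permutation p = 8.3e-05, adjusted 0.016; rho = 0.98, p = 5.0e-05), with 3.25% of rows passing for BIRC5. AURKA and TPX2 had r = 0.94 (exact permutation p = 6.6e-05, adjusted 0.032; rho = 0.93, p = 0.00075), with 1.55% of rows passing for AURKA. CDK1 and CCNB1 had r = 0.93 (exact permutation p = 0.00045, adjusted 0.034; rho = 0.92, p = 0.0013), with 2.41% of rows passing for CDK1. Without the 2 lines farthest from the median of the first gene, r was 0.97 for KIF23 and ECT2, 0.94 for BIRC5 and CDCA8, 0.90 for AURKA and TPX2 and 0.89 for CDK1 and CCNB1. These r stayed at 0.89 or higher. With 8 lines, all 4 pairs passed the adjusted threshold without Asia or without China. Fewer passed otherwise: 0 without Vok, 1 without Bobby, Khao, Phyllis or Ricky and 2 without Melouprey or Nancy.

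The remaining pairs did not pass. NDC80 and NUF2 had r = 0.92 (exact permutation p = 0.00077, adjusted 0.097; rho = 0.93, p = 0.00075; r = 0.90 without Asia and Phyllis), where only 0.0159% of rows passed for NDC80. NCAPG and NCAPH had r = 0.87 (exact permutation p = 0.0034, adjusted 0.065; rho = 0.88, p = 0.0031; r = 0.84 without Khao and Vok), against 3.57% of rows for NCAPG. SMC2 and SMC4 had r = 0.78 (exact permutation p = 0.013, adjusted 0.20; rho = 0.83, p = 0.0083; r = 0.88 without Khao and Phyllis), against 0.0635% for SMC2. AURKB and INCENP had r = 0.76 (exact permutation p = 0.014, adjusted 0.15; rho = 0.87, p = 0.0045; r = 0.95 without Asia and Vok), against 1.22% for AURKB. Asia lay higher for INCENP than its place for AURKB.

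ESPL1 and PTTG1, an enzyme and its inhibitor, had r = 0.59 (exact permutation p = 0.090, adjusted 0.30; rho = 0.55, p = 0.13), against 1.17% of rows for ESPL1. This relation rested on the end lines, since r was -0.06 without Asia and Vok. MAD2L1 and CDC20, the core of the checkpoint complex, had r = 0.43 (exact permutation p = 0.26, adjusted 0.65; rho = 0.38, p = 0.31; r = 0.28 without Asia and Ricky), where 0.00% of rows passed for MAD2L1. BUB1B and BUB3 had r = 0.11 (exact permutation p = 0.78, adjusted 0.90; rho = 0.32, p = 0.41; r = 0.20 without Melouprey and Phyllis), against 1.10% for BUB1B. In the plot of BUB1B and BUB3, Asia sits alone at the top left, lowest for BUB1B and highest for BUB3. Without Asia r was 0.77 over the other 8 lines (adjusted p of the exact permutation test = 0.12). Leaving out Khao or Vok moved it the other way, to -0.07 and -0.13, so r of this pair depended on single lines.

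**Figure D4:**
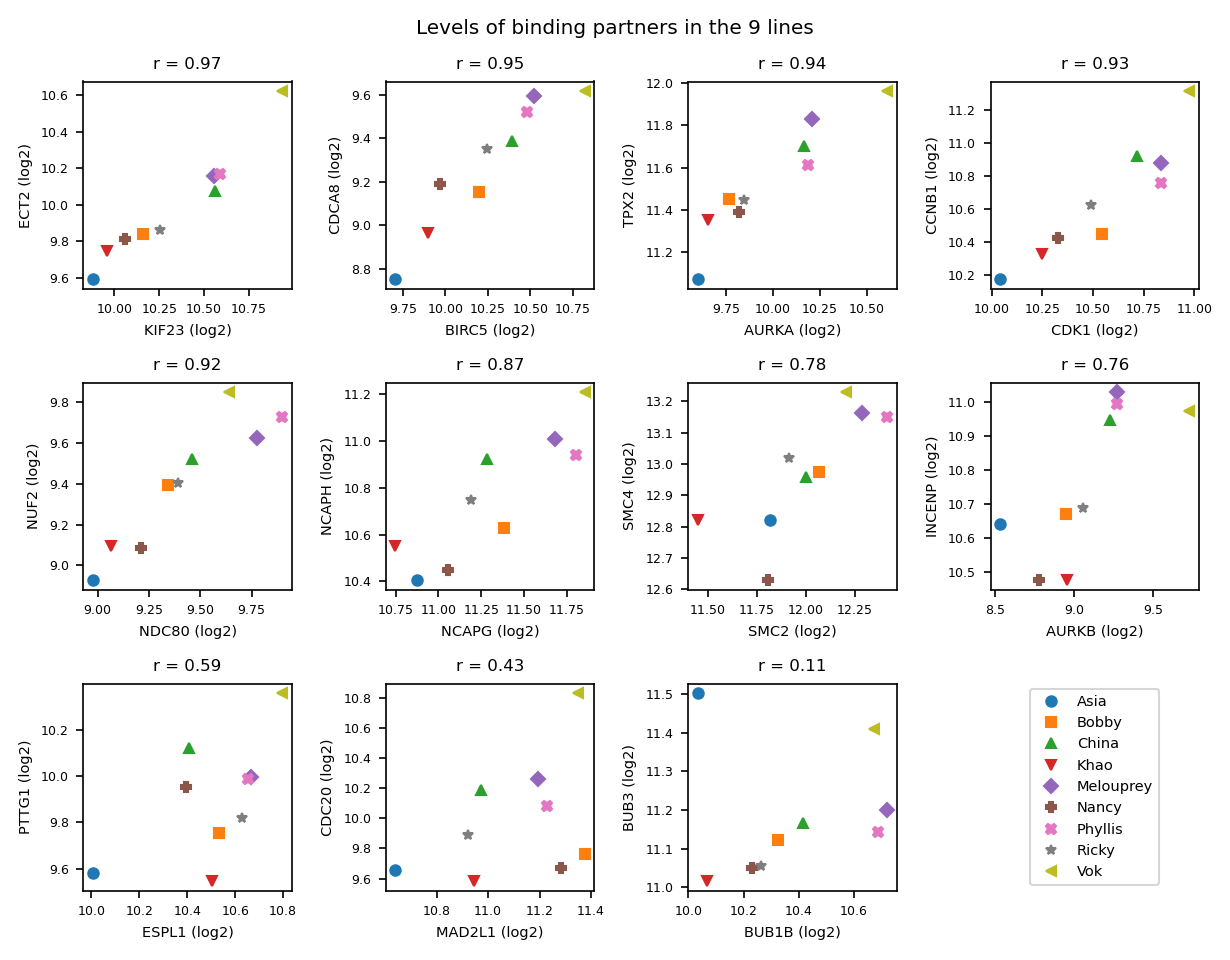
Levels of the 11 pairs of partners, in log2 units, with the first gene on the horizontal and the second on the vertical axis. Each symbol is 1 line and r is Pearson's correlation over the 9 lines. The panels run from r = 0.97 for KIF23 and ECT2 to 0.11 for BUB1B and BUB3, where Asia lies apart from the other lines.

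Each gene was also compared with the level of S-phase genes in the same line, which asks whether mitotic transcripts follow those of DNA synthesis. The S-phase level was the mean deviation of 176 identifiers that mark S phase in a published cell cycle classifier, with the mitotic genes left out. These identifiers were themselves only loosely related, with a mean pairwise correlation of 0.15 over the lines and 35 of 176 called as rising with their own mean (19.9%). The S-phase level was 0.15 log2 units in Melouprey, 0.13 in Vok, 0.12 in Phyllis, 0.02 in Bobby, -0.01 in China, -0.02 in Ricky, -0.09 in Asia, -0.10 in Nancy and -0.13 in Khao. An earlier description of these data had already shown S-phase and G2M gene lists to vary together, so the direction found here is not independent of it.

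All 41 slopes were positive, against 50.02% of all kept rows. limma, with Benjamini-Hochberg adjustment over the 12590 kept rows, called 18 of 41 genes as rising with the S-phase level (43.9%), against 3.0% of all kept rows rising, 1.83% falling and 4.83% in either direction. None of the 41 was called as falling. A further 20 genes had an unadjusted p under 0.05 and did not pass the adjustment. With these, 38 of 41 genes (92.7%) had an unadjusted limma p under 0.05, against 22.9% of all kept rows. The 41 genes are not independent, with a mean pairwise correlation of 0.78 against 0.0082 over all kept rows. These counts are therefore not 41 separate observations. The median slope of the 41 genes was 2.30 log2 units per log2 unit of S-phase level, against 0.00055 over all kept rows.

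The 10 genes with the smallest limma adjusted p were led by NCAPG, with a slope of 3.55 ± 0.39 (SE, n = 9, adjusted p = 0.0079), equal to 1.28-fold for each 0.1 of S-phase level. KNL1 had a slope of 4.05 ± 0.57 (adjusted p = 0.010), BUB1B 2.32 ± 0.34 (adjusted p = 0.012) and CENPE 3.49 ± 0.56 (adjusted p = 0.014). KIF11 followed with 2.33 ± 0.37, SMC2 with 2.51 ± 0.40, NDC80 with 2.68 ± 0.44, NUF2 with 2.64 ± 0.47, CDK1 with 2.59 ± 0.48 and BIRC5 with 2.84 ± 0.55, at adjusted p from 0.014 to 0.024. These genes come from the kinetochore, condensin, the checkpoint, a spindle motor, the passenger complex and the entry kinase.

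The other genes called were INCENP, SMC4, ANLN, NCAPH, KIF23, KIF2C, CDCA8 and CENPF, with slopes from 1.64 (SMC4) to 2.78 (KIF23). By role, 5 of 8 kinetochore and centromere genes, 4 of 7 genes of condensin, topoisomerase and chromosome surface, 3 of 4 passenger genes, 2 of 3 motors, 2 of 6 midzone genes, 1 of 4 checkpoint genes, 1 of 7 genes of entry and APC/C activation and 0 of 2 separation genes passed. No difference between roles was tested. The 4 genes nearest outside the threshold were AURKA (slope 2.49 ± 0.62, limma adjusted p = 0.051), ECT2 (2.32 ± 0.59, 0.056), CDC20 (2.96 ± 0.76, 0.056) and NUSAP1 (2.27 ± 0.58, 0.057). The smallest slopes were those of BUB3 (0.40 ± 0.54, limma adjusted p = 0.70), PRC1 (0.66 ± 0.51, 0.47), KIF18A (1.11 ± 0.49, 0.21) and MAD2L1 (1.24 ± 0.66, 0.30).

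**Figure D5:**
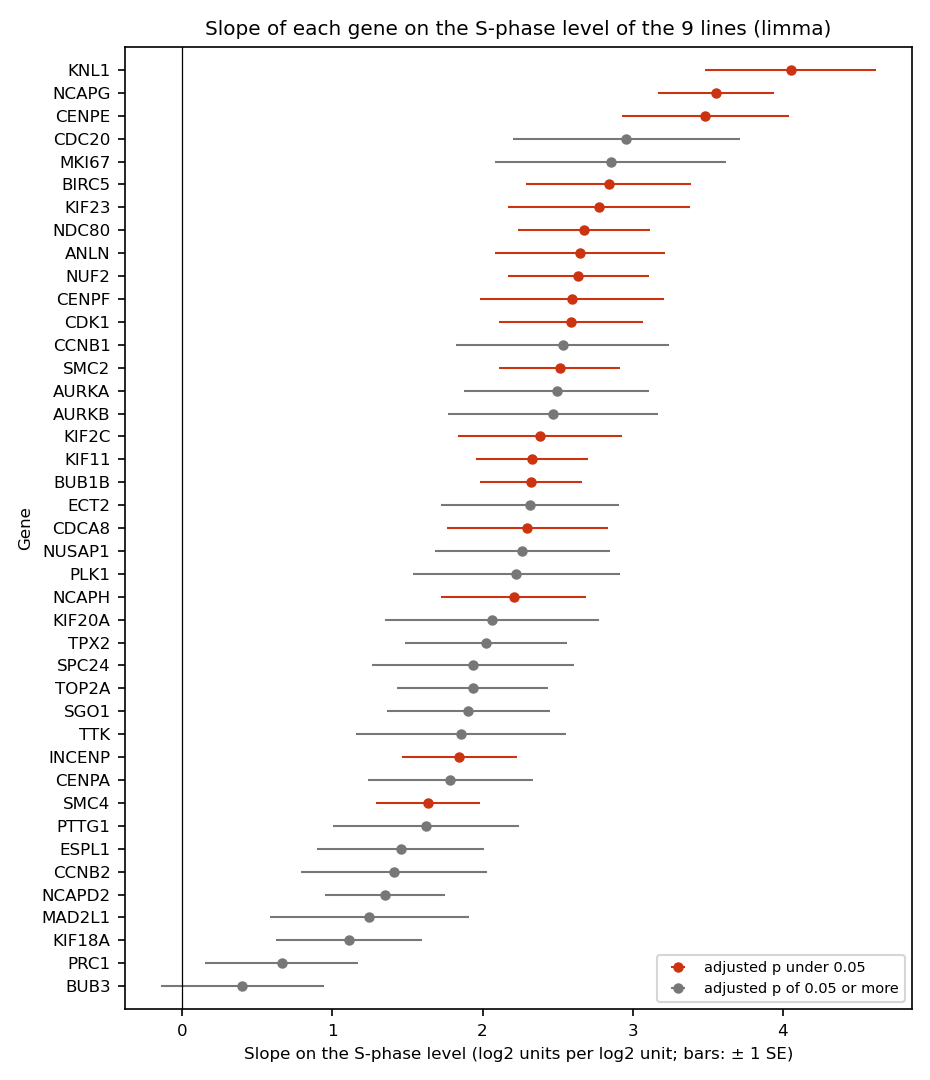
Slope of each of the 41 genes on the S-phase level of the line (horizontal axis, log2 units per log2 unit; bars are ± 1 SE from limma over 9 lines), sorted by slope. Red points passed an adjusted p of 0.05 over all kept rows; the slopes run from 0.40 for BUB3 to 4.05 for KNL1 and all lie above 0.

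The S-phase levels lay in 3 clumps of 3 lines each, too few to fit a slope within a clump. The number called fell to 4 without Phyllis, where 0.683% of all kept rows were called as rising. It was 7 without Melouprey (0.880% of all kept rows), without Nancy (1.15%) or without Vok (1.21%). It was 10 without Ricky and 11 without Bobby (1.45% of all kept rows in each). In these fits the share over all kept rows was lower too, against 3.0% with all 9 lines. The number called was 12 without Khao (1.95% of all kept rows), 15 without Asia (3.27%) and 22 without China (2.87%). NCAPG, KNL1, BUB1B and CENPE were called in each of the 9 fits that left out 1 line, and all 41 slopes stayed positive in those fits.

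Other rows that the same classifier lists for G2M were less uniform. The classifier's G2M identifiers outside the 41 genes gave 147 kept rows, which are counted only, since the table gives no symbols. Of these 147 rows limma called 25 as rising with the S-phase level (17.0%) and 5 as falling (3.40%), with a median slope of 0.33. Their highest line was Vok in 49 rows (33.3%) and their lowest Asia in 28 rows (19.0%). Their mean pairwise correlation was 0.046, against 0.0082 over all kept rows and 0.78 for the 41 mitotic genes. As a list they were thus barely related, and whether they follow G2 and mitosis in these lines was not tested. The difference between the lists was not tested either, and the mitotic genes were picked by function with earlier results of these data known.

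Neighbouring genes could add reads to some rows. In the RefSeq gene table of the assembly Asia_NLE_v1, which holds all 43 symbols, the spans of SPC24, NCAPG, PLK1, PRC1 and KIF20A overlap another protein-coding gene (KANK2, LCORL, ERN2, RCCD1 and CDC23). The spans of AURKB, CCNB1, KIF23, CENPF, NCAPD2, KNL1 and ECT2 overlap genes that are not protein-coding. Whether the counting used strand is not given in the sources used here, so values of these 12 genes may include reads of the neighbour.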

How the data were processed

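RNA-seq values of 9 lymphoblastoid lines were used, from 1 table of the whole series. The values deposited by the authors were taken as log2 values normalized between libraries, although the labels state neither the log base nor the method. Among the tools named in the submitters' processing notes are DESeq2, edgeR, STAR and Trimmomatic. The values ran from 0.71 to 18.66 and are not whole numbers, so depth per library is unknown and no counting interval could be given. The last line names in the header were split at white space; 0 per-sample columns were unused.

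Members were matched by identifier, and the identifiers were paired with symbols by the list and not by the table. A filter on the mean linear level (1 ppm or more) left 12590 rows. Slopes were fitted with limma 3.58.1 in R 4.3.3 (trend, robust prior). S-phase and G2M identifiers came from the pair classifier shipped with scran, as identifiers that are the higher member in nearly all of their pairs. Exact permutations and figures used Python 3.11.15. Both tests were tested on simulated data. The threshold was 0.05 after Benjamini-Hochberg adjustment over all kept rows.

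The members and lists were chosen with earlier results of these data known. All 43 genes were named by role. Values of all 9 lines were printed for the 8 widest and the 3 narrowest ranges, the highest and lowest mean, and genes with an outlying line, and slopes for the 10 smallest adjusted p. Promoter motifs were not analysed here, and 1 cell type marker is not reported here.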

Additional observations from a re-analysis of the deposited data

Results flagged for a closer look

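A line was called outlying where its gap to the nearest other line exceeded Dixon's 95% critical share of the range for 9 values. Of 43 sets of 9 values checked (the 41 genes, their median deviation and the S-phase level), 2 met the criterion; chance flags about 1 in 20 independent sets, and these sets share their lines. Among the 41 genes that is 4.88%, against 10.1% of all kept rows. CCNB2 met this in Asia, where it read 9.49 log2 units and the next line 9.96, a gap of 0.59 of its range. PLK1 met it in the same line, at 9.39 against 9.95 in the next, a gap of 0.51 of its range.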

How the results depend on the processing

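Rescaling (equal medians or quantiles), a pseudocount of 1 ppm, no filter, a filter of 5 ppm, limma without trend and an S-phase level by median kept each count within 1.5 times: 13 to 15 genes spanning 2-fold, 15 to 26 genes called on the S-phase level, and a mean pairwise correlation of 0.77 to 0.79. The number of pairs called was 2 with Spearman's correlation and 4 under the other rescalings and filters. With 1 line left out, 4 (without Vok) to 14 genes spanned 2-fold, the span of the median deviation was 0.64 to 0.82, 4 (without Phyllis) to 22 genes were called on the S-phase level, the mean correlation was 0.74 to 0.80 and 0 (without Vok) to 4 pairs were called. Without Asia and Vok together, chosen after seeing the data, 1 gene spanned 2-fold, the span was 0.49, 7 genes and 0 pairs were called, and the mean correlation was 0.76. The share of all tested rows called as rising with the S-phase level moved as well. It was 2.01% (no filter) to 4.68% (filter of 5 ppm) under the processing settings. With 1 line left out it was 0.683% (without Phyllis) to 3.27% (without Asia), and 1.22% without Asia and Vok. For the 2-fold counts no share over all kept rows was computed with lines left out. Fewer lines raise the smallest p that permutations can give, and the part of this in the lost pair calls was not tested. All 4 pairs stayed called without Asia and without China. Correlations that changed sign were those of BUB1B and BUB3 (-0.07 without Khao, -0.13 without Vok), ESPL1 and PTTG1 (-0.060 without Asia and Vok, which are also its 2 farthest lines) and MAD2L1 and CDC20 (-0.038 without Asia and Vok); the cause was not tested. No slope of the 41 genes changed sign under any setting. Shifting the lines to equal medians moved the median of no line by more than 0.012 log2 units. The shift under quantile normalization was not computed. No paired analysis was possible because all 9 lines form 1 group. The promoter motif search was not run. Depth is unknown, so counting noise could not be separated from differences between lines.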
